A study of Homo sapiens with 14 samples.

Results

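The regions described here are places where the SS18::SSX fusion oncoprotein was called in vehicle-treated HS-SY-II cells, away from protein-coding genes and without the chromatin remodelling subunit GLTSCR1. They were chosen by a rule that used the measured peak lists. A member is a region of the DMSO fusion list on chromosomes 1 to 22, X or Y that is at most 5000 bp wide. It overlaps no protein-coding gene span extended by 1 kb on each side, and no region of the DMSO GLTSCR1 list. The rule found 7099 members among 24953 DMSO fusion regions, or 28.4% of that list, and together they cover 5.90 Mb. A further 51 regions that otherwise fit the rule were wider than 5000 bp and stay outside it.

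HS-SY-II is an established synovial sarcoma cell line. Chromatin immunoprecipitation with sequencing was done with an antibody against GLTSCR1 and with an antibody against HA, which recognises the HA-tagged fusion. Cells received DMSO, the vehicle, or 100 nM WA-68, a PROTAC that degrades BRD9, for 12, 24, 48 or 96 h, and the fusion was profiled in DMSO and at 12, 24 and 48 h. Each antibody and time has 1 library, all cells carry the genotype label WT, and the labels give neither the origin of the HA tag nor the time in DMSO.

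SS18::SSX joins SS18, a subunit of BAF-type chromatin remodelling complexes, to the end of an SSX protein, which binds nucleosomes that carry the Polycomb mark of ubiquitinated histone H2A. GLTSCR1 (also called BICRA) and BRD9 are subunits of GBAF, the remodelling complex that also contains SS18 and lacks several subunits of the other BAF forms. In synovial sarcoma the fusion is known for binding broadly over unmethylated CpG islands and the Polycomb-marked developmental genes around them, while distal intergenic sites can be enhancers or outlying parts of such domains.

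Few members hold an annotated start site, and these are where reference sequence can be shown beside the calls. RefSeq's promoter windows (GRCh38.p14, 250 bases before to 50 after a start) place 124 non-coding windows in 111 members, and 30 of the windows contain the member's strongest summit. The 4 windows below are those with the highest DMSO fold among windows with the summit inside, the LINC00427 and LINC02151 pair from members with fusion at every later time and the LOC124900272 and HCG27 pair from members with fusion at none. They read 5′ to 3′ on the strand of the gene, and capitals mark CpG dinucleotides.
LINC00427, chr13:30319854-30320153, minus strand: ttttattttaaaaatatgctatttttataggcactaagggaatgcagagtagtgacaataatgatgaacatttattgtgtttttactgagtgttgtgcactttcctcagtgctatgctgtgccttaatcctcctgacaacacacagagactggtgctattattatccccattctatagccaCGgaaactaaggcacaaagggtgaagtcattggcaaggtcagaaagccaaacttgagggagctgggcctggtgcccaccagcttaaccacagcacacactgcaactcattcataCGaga
LINC02151, chr11:116500634-116500933, minus strand: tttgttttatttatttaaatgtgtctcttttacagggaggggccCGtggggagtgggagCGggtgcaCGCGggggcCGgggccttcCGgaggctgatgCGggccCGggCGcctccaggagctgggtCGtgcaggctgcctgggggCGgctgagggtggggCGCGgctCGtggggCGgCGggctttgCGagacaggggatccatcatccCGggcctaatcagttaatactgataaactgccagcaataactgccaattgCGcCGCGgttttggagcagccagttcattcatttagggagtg
LOC124900272, chr9:41357675-41357974, plus strand: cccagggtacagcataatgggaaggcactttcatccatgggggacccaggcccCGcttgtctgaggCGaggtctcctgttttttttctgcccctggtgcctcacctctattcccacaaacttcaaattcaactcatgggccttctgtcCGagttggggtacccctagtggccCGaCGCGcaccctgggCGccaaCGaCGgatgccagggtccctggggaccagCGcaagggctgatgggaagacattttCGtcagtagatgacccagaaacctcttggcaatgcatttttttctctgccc
HCG27, chr6:31197510-31197809, plus strand: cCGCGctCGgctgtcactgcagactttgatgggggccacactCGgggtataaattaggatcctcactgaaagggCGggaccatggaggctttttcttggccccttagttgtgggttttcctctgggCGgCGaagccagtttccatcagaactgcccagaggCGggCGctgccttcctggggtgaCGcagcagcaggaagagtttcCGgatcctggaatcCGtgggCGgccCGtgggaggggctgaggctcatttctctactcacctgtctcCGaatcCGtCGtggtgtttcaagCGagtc

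The 4 windows differ in CpG content within each pair. LINC00427 has 2 CpG and 42.3% G or C, and LINC02151 has 21 CpG and 61.7%. LOC124900272 has 11 CpG and 57.0%, and HCG27 has 18 CpG and 59.7%. The fold of the fusion, which is the authors' enrichment at the region's summit over local background, was 7.98 in DMSO and 7.71, 9.62 and 7.12 at 12, 24 and 48 h for the member at LINC00427. At LINC02151 it was 6.25 in DMSO and 6.63, 6.52 and 6.12 later. The members at LOC124900272 (4.42 in DMSO) and HCG27 (4.36) had no later fusion call. The HCG27 member, 26.7 kb from POU5F1, was instead overlapped by GLTSCR1 at 12 h (fold 5.44) and 96 h (fold 4.43).

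Windows on chromosome 8, which has 377 members, were not analysed here, so the window counts cover the other chromosomes. Over all 124 windows the median G+C content was 59.5%, beside 46.3% for all 7292 intergenic non-coding windows and 58.7% for the 196 windows in intergenic fusion regions with GLTSCR1. CGCG stood in 41.9% of the members' windows, in 16.02% of all and in 49.5% of those with GLTSCR1. TGANTCA, the letters of an AP-1 site, stood in 5.65% of the members' windows against 12.2% of all, and CACGTG, an E-box, in 4.84% against 4.65%. Each of these motifs reads the same on both strands, the ends of TGANTCA and CACGTG can overlap, and a match is a description of the letters. The 15 windows in members with no later fusion call had a median G+C content of 59.0%, close to the 59.5% of the 76 in members with fusion at every later time. CGCG stood in 9 of the 15 (60%) and 29 of the 76 (38.2%). TGANTCA stood in 0 of the 15 and 6 of the 76 (7.89%), and CACGTG in 0 and 4 (5.26%). These counts are small and carry no intervals. Some windows also share a member, with the 15 in 14 members and the 76 in 67, so no difference is read from them.

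Members were mostly narrow and weak. Their median width was 569 bp (lowest 290, highest 4978) and their median fold 4.38 (lowest 1.59, highest 18.8), both fixed in part by the rule. A single summit was called in 66.5% of them. Fusion regions in the same kind of place with GLTSCR1, 2772 in number, had a median width of 1192 bp and a median fold of 5.31. Fusion regions inside gene bodies, over 1 kb from either gene end and without GLTSCR1, 6739 in number, had a median width of 562 bp and a median fold of 4.37. Of the members, 5.96% fell in the highest decile of DMSO fold among regions at most 5000 bp wide, beside 24.7% of the intergenic regions with GLTSCR1. These values come from the lists that chose the members and support nothing further.

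The members lay far from genes as well as just outside them. The median distance to the nearest protein-coding span was 63.3 kb and the largest was 1947 kb. GLTSCR1 absence applies to the region itself: 948 members (13.4%) had a DMSO GLTSCR1 region within 1 kb. Intergenic here refers to protein-coding genes, since 1931 members (27.2%) overlapped a non-coding gene or pseudogene.

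Most members carried a fusion call again in each later list, and 14.2% carried none. A member counts as called when a region of the later list overlaps it by at least 1 bp. Fusion was called at 12 h in 5058 members (71.2%, 95% interval 70.2 to 72.3), where 70.9% of all DMSO fusion regions at most 5000 bp wide were called. At 24 h it was called in 4373 (61.6%, 60.5 to 62.7; 62.9% of all), and at 48 h in 4716 (66.4%, 65.3 to 67.5; 67.3% of all). All 3 later lists called 3268 members (46.0%, 44.9 to 47.2; 48.4% of all), and none called 1011 (14.2%, 13.4 to 15.1; 15% of all). Each of the members' shares lies close to the background beside it.

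These intervals are exact Clopper-Pearson intervals and cover counting error only. With 1 library a group no test between times is possible, the read depth is unknown from peak lists, and an uncalled region is not shown to be empty. The order of the shares, 12 h above 48 h above 24 h, is also the order of list length, with 28619, 26405 and 24846 regions. With every fusion list cut to its 24846 regions of highest −log10 q, the shares were 66.8, 61.8 and 64.3%.

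Strength and width in DMSO went with later calls. In the weakest decile of DMSO fold, 759 members, 27.9% were called at every later time (24.8 to 31.3) and 20.03% at none. In the strongest decile, 423 members, 95.7% were called at every time (93.4 to 97.5) and a single member, 0.236%, at none. These members were also wide, with a median of 1973 bp. Where the strongest summits had to lie within 250 bp of each other, 25.1% of them were called at every time (21.0 to 29.5). Of the 1856 members up to 400 bp wide, 17.0% were called at every time and 30.5% at none. Of the 478 that were over 2000 bp wide, 98.7% were called at every time and 0 at none, which allows a share of up to 0.769%. Wider regions are overlapped more easily, so width enters the count itself.

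**Figure D1:**
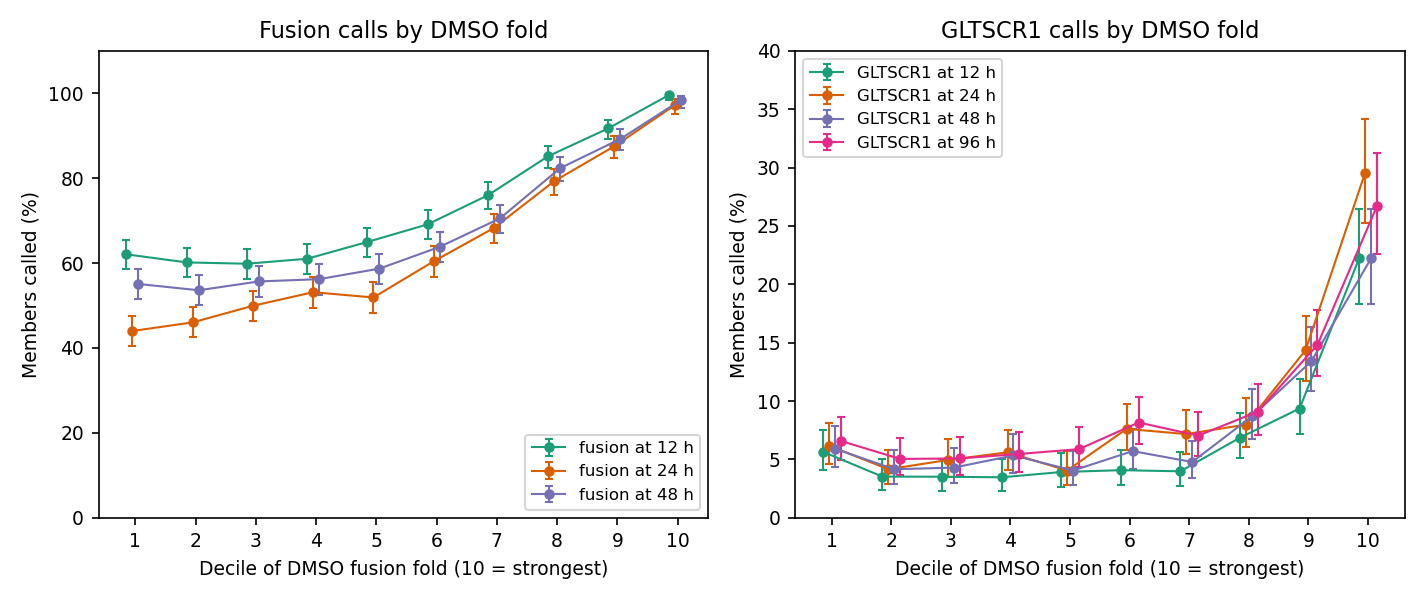
Share of members (%) with a fusion call (left) or a GLTSCR1 call (right) in each later list, by decile of DMSO fusion fold from 1 (weakest) to 10 (strongest); points are shares of 423 to 793 members and bars are exact 95% intervals for counting error. Fusion shares lie above 97% at each time in decile 10, and GLTSCR1 shares lie above 22% there.

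The later regions were wider than the members they overlapped. Among members called, the median width of the overlapping region was 1102 bp at 12 h, 938 bp at 24 h and 1001 bp at 48 h, beside DMSO widths of 694, 748 and 721 bp for the same members. A region over 5 kb wide accounted for the call in 407, 246 and 330 members. The strongest summits lay within 250 bp of each other in 44.5, 46.5 and 45.8% of the called members. A separate count took any later region whose strongest summit lay within 250 bp of the member's, whether or not the regions overlapped. By that rule 33.8, 30.7 and 32.4% of all members were called at the 3 times, 8.28% at every time and 39.7% at none. The share called again therefore depends on whether overlap or summit position is asked for. Members with no overlap often had fusion nearby: 606 of the 1011 (59.9%) had a later fusion region within 1 kb in at least 1 list, and 815 within 5 kb.

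At like DMSO fold the members lay close to intragenic regions without GLTSCR1, and were called by the fusion more often than gene ends at 12 and 48 h. Each difference compares regions of the same decile of DMSO fold and weights the deciles by their number of members. In the share called at every time, members differed from intragenic distal regions by 0.91 points (95% interval −0.60 to 2.42), an interval that holds 0. At single times the differences were −1.34 points in the 12 h list (−2.78 to 0.097), 1.06 points in the 24 h list (−0.47 to 2.59) and 0.60 points in the 48 h list (−0.90 to 2.10). With gene spans extended by 10 kb, the intragenic distal regions were also redrawn, to those over 10 kb from either gene end. Intervals at single times then excluded 0, with −1.82 points for 12 h (−3.45 to −0.20), 1.79 points for 24 h (0.036 to 3.54) and 1.73 points for 48 h (0.020 to 3.44). Among members over 1 kb from any DMSO GLTSCR1 region the 12 h difference was −1.61 points (−3.16 to −0.053). All these intervals count regions as independent, although neighbours can share a later region: 4371 later regions overlapped the 5058 members called at 12 h. Bounds this close to 0 therefore do not establish a difference. In the share called at every time, all members together exceeded the 1970 fusion regions within 1 kb of a gene end and without GLTSCR1 by 4.10 points (1.89 to 6.31). In the 12 h list the excess was 10.8 points (8.49 to 13.0) and in the 48 h list 5.02 points (2.74 to 7.30), while in the 24 h list members and gene ends differed by −0.0057 points (−2.29 to 2.28). With width also matched, the difference in calls at every time was 2.68 points (0.61 to 4.75). By time it was then 9.53 points for 12 h (7.37 to 11.7), −1.31 points for 24 h (−3.48 to 0.87) and 3.81 points for 48 h (1.64 to 5.98). With gene spans extended by 10 kb, the gene-end regions became those within 10 kb of a gene end. The difference in calls at every time was then 1.52 points (−0.17 to 3.21), the 12 h excess was 6.59 points (4.93 to 8.25) and the 24 h difference was −3.29 points (−5.00 to −1.57). By summit position the 12 h excess was 5.5 points (3.25 to 7.74).

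**Figure D2:**
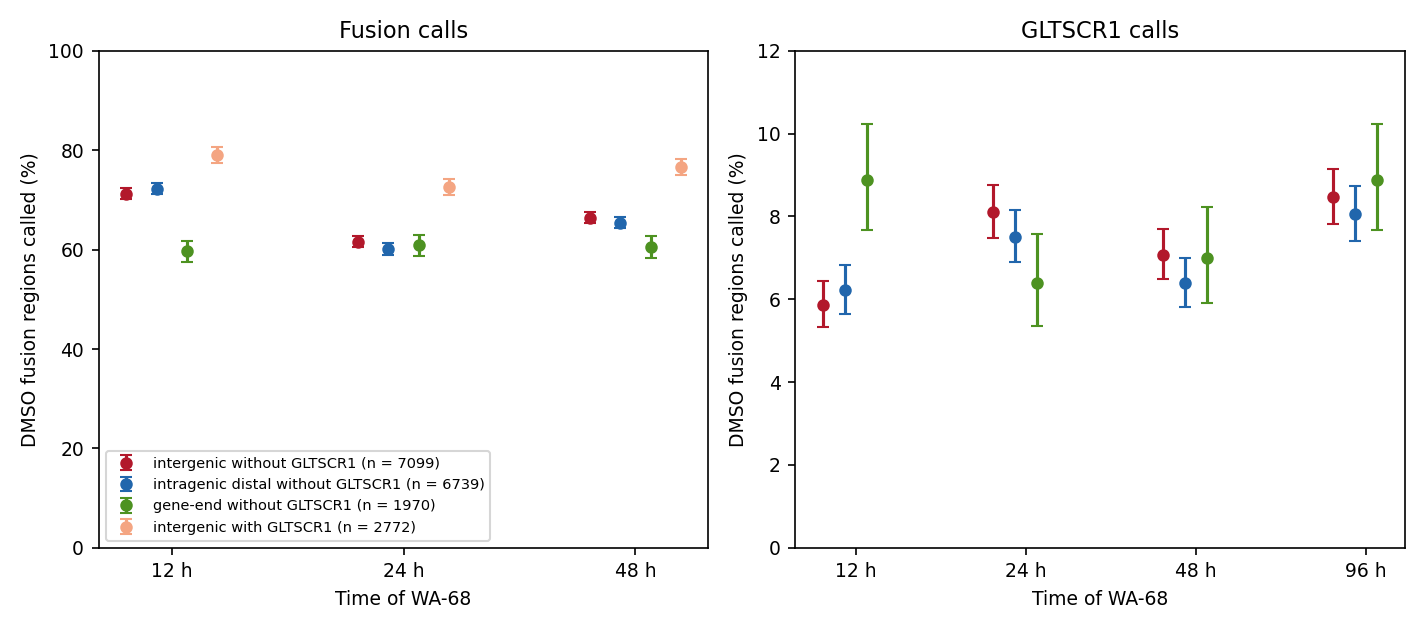
Share of DMSO fusion regions at most 5000 bp wide (%) called in each later fusion list (left) and GLTSCR1 list (right), for the 7099 members (red) and 3 other kinds of region; bars are exact 95% intervals for counting error, and regions chosen for DMSO GLTSCR1 are left out on the right. Gene-end regions lie lowest for the fusion at 12 h (59.6%), and highest for GLTSCR1 at 12 h (8.88%).

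The comparison with intergenic regions that carried GLTSCR1 in DMSO turned with the matching. Those regions were called at every time in 63.5% of cases (61.7 to 65.3), and without any matching the members differed from them by −17.5 points. At like fold the members differed from them by −2.50 points (−4.69 to −0.32). At like fold and like width they lay 7.08 points higher (4.96 to 9.19), so no direction is given to this difference.

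GLTSCR1 was called in a small share of members at every later time. It was called in 417 members at 12 h (5.87%, 5.34 to 6.45), where 6.4% of all 15808 fusion regions without DMSO GLTSCR1 were called. It was called in 575 at 24 h (8.10%; 7.64% of all), in 502 at 48 h (7.07%; 6.78% of all) and in 601 at 96 h (8.47%; 8.34% of all). At least 1 later list called 1145 members (16.1%, 15.3 to 17.0; 16.3% of all), and all 4 called 131 (1.85%; 1.69% of all). Because the members were chosen for having no DMSO call, any later call is a gain by construction and gives no direction over time. The GLTSCR1 regions were narrow, with medians of 358, 406, 357.5 and 385 bp at 12, 24, 48 and 96 h.

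Gene ends again differed at 12 h. In GLTSCR1 calls at like fold, members minus gene-end regions came to −3.16 points in the 12 h list (−4.56 to −1.76) and to 1.53 points in the 24 h list (0.24 to 2.82). Against intragenic distal regions the differences ran from −0.46 to 0.57 points over the 4 times, and each interval held 0.

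Later GLTSCR1 calls were most frequent in the strongest and widest members. In the strongest decile of fold, 215 of 423 members (50.8%, 46.0 to 55.7) had GLTSCR1 in at least 1 later list, against 9.13% in the third decile, the lowest. The median widths of these 2 deciles were 1973 and 463 bp, so strength and ease of overlap go together here. By summit position the share in the strongest decile was 31.4% (27.0 to 36.1), and with lists of equal length 45.6% (40.7 to 50.5). Of the members over 2000 bp wide 56.7% had it, and of those up to 400 bp wide 6.73%. GLTSCR1 and fusion calls also met in the same members. GLTSCR1 was called in at least 1 later list in 834 of the 3268 members with fusion at every time (25.5%, 24.0 to 27.1), and in 67 of the 1011 with fusion at none (6.63%, 5.17 to 8.34). The former were wider and stronger, with median widths of 926 and 381 bp and median DMSO folds of 5.07 and 3.98. This contrast was not matched for either.

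**Figure D3:**
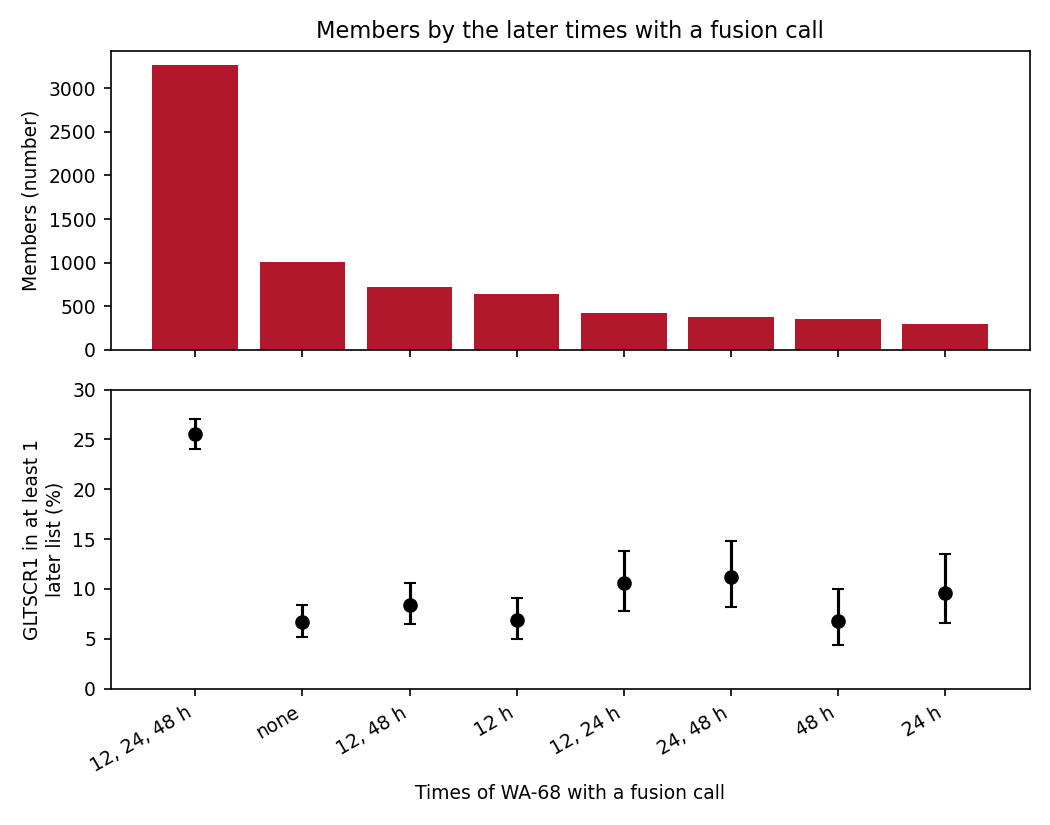
Number of members by the later times at which fusion was called (top) and, in each pattern, the share with GLTSCR1 in at least 1 of 4 later lists (bottom, %, with exact 95% intervals for counting error). The 3268 members with fusion at 12, 24 and 48 h stand at 25.5%, and the other 7 patterns lie between 6.63% and 11.1%. The patterns are not matched for DMSO fold or width.

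Within a time, members with a fusion call had GLTSCR1 more often than members without it. At 12 h the shares were 7.28% of 5058 and 2.40% of 2041, at 24 h 11.3% of 4373 and 2.93% of 2726, and at 48 h 9.01% of 4716 and 3.23% of 2383. At like DMSO fold the differences were 5.48 points (0.38 to 10.6), 9.01 points (7.20 to 10.8) and 6.38 points (4.04 to 8.72). With width also matched they were 3.86 (−2.52 to 10.2), 7.93 (2.73 to 13.1) and 4.60 points (−0.087 to 9.28), so the interval excludes 0 at 24 h alone. Few strong or wide members lacked a fusion call, which makes these intervals wide. The number of later GLTSCR1 lists did not order the fusion calls: fusion at every time was seen in 40.9% of the 5954 members with no later GLTSCR1 call, in 73.9% of 605 with 1 list, 74.3% of 261 with 2, 73.0% of 148 with 3 and 64.9% of 131 with 4.

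Distance from genes went with the fusion calls in a way that differed between times. Among the 2889 members over 100 kb from a protein-coding span, fusion was called at 12 h in 5.73 points more at like fold than among the 1349 members within 10 kb (2.91 to 8.56). The same difference, far minus near, was −8.52 points at 24 h (−11.4 to −5.62), and its interval at 48 h held 0 (2.09 points, −0.83 to 5.01). In the 588 members over 500 kb away the shares were 75%, 50.9% and 62.1% at 12, 24 and 48 h, and in the 1349 within 10 kb they were 67.6, 65.5 and 63.1%. By summit position the interval held 0 both at 12 h (2.95 points, −0.043 to 5.94) and at 24 h (−1.06 points, −4.00 to 1.88), and excluded 0 at 48 h (3.39 points, 0.43 to 6.35). Each time is a single library, so a time and its library cannot be told apart. For GLTSCR1 the far minus near difference was −3.26 points at 96 h (−5.18 to −1.33) and −2.17 points at 48 h (−3.96 to −0.38), while the intervals at 12 and 24 h held 0.

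**Figure D4:**
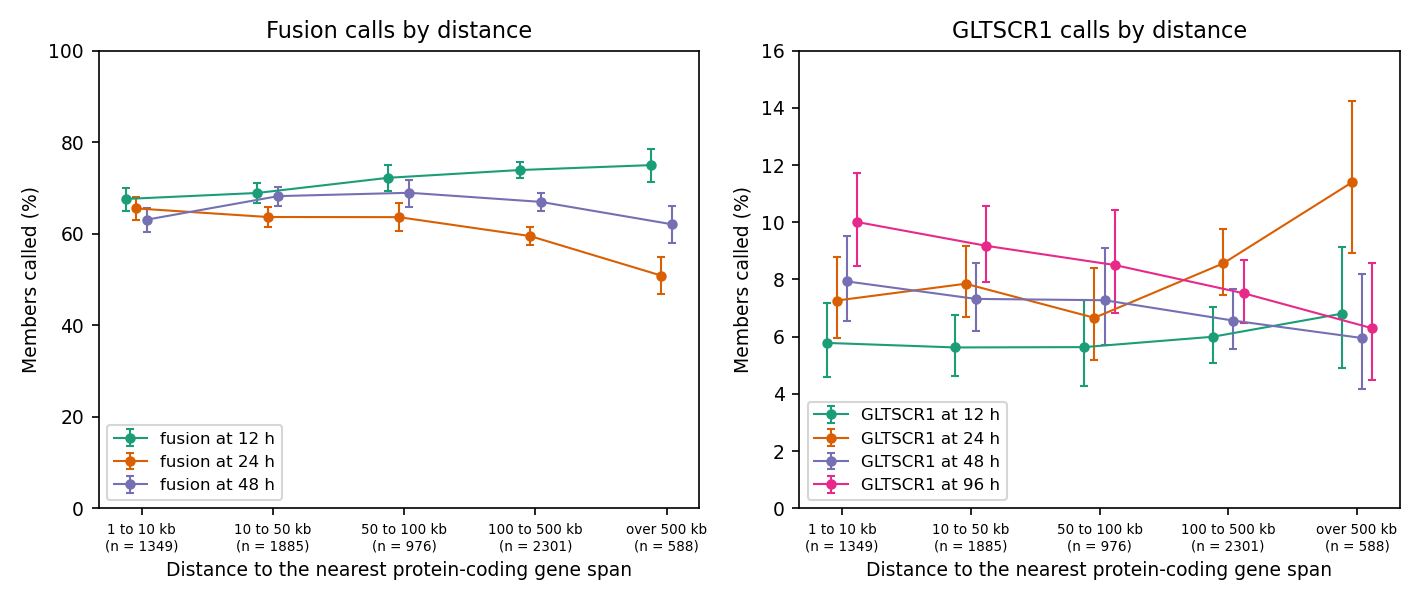
Share of members (%) called in each later fusion list (left) and GLTSCR1 list (right), by distance to the nearest protein-coding gene span; bars are exact 95% intervals for counting error and the number of members is given under each bin. At 24 h the fusion share goes from 65.5% in the nearest bin to 50.9% in the farthest, while at 12 h it goes from 67.6% to 75%.

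Many members stood in dense runs. With gaps of at most 20 kb joined, the members formed 2764 runs, 1308 of them a member alone, and 81 runs of 10 or more held 1197 members. Fusion was called at every time in 61.0% of members in the long runs (58.2 to 63.8) and in 31.3% of those alone (28.8 to 33.9). At like fold the difference was 23.8 points (20.2 to 27.4), and at like fold and width 17.3 points (14.0 to 20.7). By summit position it was −2.83 points (−5.39 to −0.27), so more members in runs were overlapped while their strongest summits did not recur more often. GLTSCR1 in at least 1 later list went the other way, in 12.3% of members in long runs and 19.6% of those alone, a difference of −8.96 points at like fold (−12.0 to −5.97).

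The longest run held 39 members over 193 kb of chromosome 8 (141845184 to 142038515), with C8orf90 and TSNARE1 as the nearest genes. Fusion was called at every time in 29 of them and at none in 0, and 10 DMSO GLTSCR1 regions lay inside the run without touching a member. A run of 31 members on chromosome 14 (104267300 to 104396037), near KIF26A, a kinesin-family gene, and C14orf180, had fusion at every time in 20. A run of 30 on chromosome 12 (132331086 to 132420088), near GALNT9, which encodes a glycosyltransferase, had it in 25. Neighbours in a run share local chromatin and often the same later region, and are not independent of each other.

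Counted by nearest gene, C8orf90 had 55 members, TSNARE1 48 and ADGRL2, an adhesion receptor gene, 44. KIF26A had 42, MN1, a transcriptional coregulator gene, 40 and PREX1, a Rac exchange factor gene, 40. CRYBA4, a lens crystallin gene, had 39, LOC102723475 had 37, IFTAP 33 and FOXF1, a forkhead factor of mesoderm, 32. The share called at every time ran from 33.3% near IFTAP to 70.9% near C8orf90, with 68.8% near FOXF1 and 38.6% near ADGRL2. The 37 members near LOC102723475 lie on chromosome 21 by the 45S ribosomal DNA copies, and none of them had GLTSCR1 in a later list. Those copies are nearly identical, so the placing of reads among them is uncertain. The nearest gene is a label for position and was not tested as a target.

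Near the wide fusion domains, members were overlapped more often by later fusion regions and less often by later GLTSCR1 regions. The 947 members within 5 kb of a DMSO fusion region wider than 5 kb had fusion at every time in 54.1% (50.8 to 57.3), and the 4039 over 100 kb from one, or on a chromosome without one, in 41.7% (40.1 to 43.2). GLTSCR1 was called in at least 1 later list in 11.6% (9.64 to 13.8) of the near and 17.7% (16.6 to 18.9) of the far members. The near members were also wider, with a median of 656 bp against 546 bp, at median DMSO folds of 4.30 and 4.43. Near minus far, the share with fusion at every time differed by 13.1 points at like fold (9.90 to 16.3) and by 6.83 points with width also matched (3.80 to 9.87). For GLTSCR1 the same differences were −5.90 points (−8.22 to −3.58) and −8.97 points (−11.5 to −6.43). This comparison was made by overlap alone, and whether it holds by summit position was not tested.

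Fusion at every time was seen in 44.3% of the 1710 members on long non-coding RNA genes and in 46.3% of the 5168 on no annotated gene. The 11 members on ribosomal RNA genes all had it, within the near-identical copies named above, and GLTSCR1 was called in 0 of the 11. Of 25 members on transfer RNA genes 4 had it (16%, 4.54 to 36.1) and 7 had fusion at none. Of 11 on microRNA genes 10 had it, and several of these lie in the ribosomal DNA copies too. EMX2OS, the antisense RNA of the forebrain homeobox gene EMX2, held 4 members with DMSO folds of 6.42, 4.61, 4.25 and 3.75. The 3 strongest of those had fusion at every time, and the weakest at 12 h alone.

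Outside the ribosomal DNA, the microRNA members at MIR9-1 and MIR9-3, neural microRNA genes, and at MIR203A, an epithelial one, are shown with their mature products because the MIR9 pair shares both arms. Capitals mark the seed, bases 2 to 8, in the RefSeq sequence (GRCh38.p14).
miR-9-5p: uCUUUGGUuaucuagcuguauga
miR-9-3p: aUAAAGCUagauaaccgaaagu
miR-203a-3p: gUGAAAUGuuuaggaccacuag
The member at MIR9-1 on chromosome 1 (156419924 to 156420885) had a DMSO fold of 5.04 and that at MIR9-3 on chromosome 15 (89367317 to 89368499) a fold of 3.87. The member at MIR203A on chromosome 14 (104117345 to 104118579) had 7.80. Fusion was called at every time at each of these 3, and GLTSCR1 only at MIR203A, at 96 h. Other microRNA members outside the ribosomal DNA are not shown. Those at MIR6080 and MIR3689B had fusion at every time, and that at MIR212 (fold 5.72) at 12 and 24 h alone.

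The 7 gene lists differed in how many of their genes had a member nearest to them, and the length of intergenic sequence around each gene was not accounted for. Of 132 developmental transcription factor genes outside the HOX clusters, 87 (65.9%) were the nearest gene of a member, with 480 members, where 8.51% of all 20033 protein-coding genes were. Fusion was called at every time in 52.3% of the 480 (47.7 to 56.8; 46.0% of all members). By nearest gene, their 4 strongest members were 2 of IRX1, a homeobox gene (DMSO folds 12.4 and 9.12), and single ones of NR2F1, a nuclear receptor gene (9.83), and LHX2, a LIM homeobox gene (9.70). They lay 389 and 164 kb from IRX1, 1027 kb from NR2F1 and 8.64 kb from LHX2. All 4 were called at every later time.

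Of 75 neuronal adhesion genes 36 (48%) had members, 349 in all. For this list and the 2 that follow, the share over all protein-coding genes was 8.51%. Fusion was called at every time in 39.8% of the 349 (34.7 to 45.2), beside 46.0% of all members. CDH10 and CDH2, cadherin genes, PCDH11X, a protocadherin gene, and ADGRL3, a latrophilin gene, led them with DMSO folds of 13.6, 11.05, 12.8 and 12.5. These members lay 131, 1130, 218 and 1090 kb from the gene named. Of 90 signalling genes 33 had members, 186 in all and 47.3% at every time, led by DLL1, a Notch ligand gene (8.54), GLI2, a Hedgehog effector gene (8.07), SHH, a Hedgehog ligand gene (7.45), and FGFR3, a fibroblast growth factor receptor gene (7.31). Of 21 genes known as fusion targets or markers of this sarcoma 16 (76.2%) had members, 119 in all. Fusion was called at every time in 39.5% of the 119 (30.7 to 48.9), beside 46.0% of all members. The strongest were 2 members 357 and 353 kb from FLRT2 (9.72 and 9.22), 1 at 227 kb from SOX2 (8.82) and 1 at 285 kb from PAX3 (8.12).

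HOX genes had 10 members at 4 of 39 genes (10.3%, beside the 8.51% of all protein-coding genes). Fusion was called at every time in 6 of the 10 (60%, 26.2 to 87.8; 46.0% of all members). None of the 10 lacked a later fusion call, where 14.2% of all members did. The DMSO fusion list lay within 1 kb of an end of 36 of the 39, where it did so for 19.3% of all protein-coding genes. The strongest of the 10 lay near HOXA13 (4.54) and HOXB1 (4.14). BAF and Polycomb genes had 10 members at 3 of 52 genes (5.77%). Fusion was called at every time in 1 (fold 5.96; 46.0% of all members) and at none in 5 (14.2% of all members). The former and the other strongest members of JARID2 lay 407 to 441 kb from it, in a run of 8 members. Cytosolic ribosomal protein genes had 17 members at 3 of 51 genes (5.88%), 2 at every time (11.8%, 1.46 to 36.4; 46.0% of all members) and 6 at none (14.2% of all members). GLTSCR1 was called in at least 1 later list in 6 of the 17 (35.3%, 14.2 to 61.7), beside 16.1% of all members. The 4 strongest of the 17 had RPL38 as nearest gene, 195 to 215 kb away, with folds from 7.08 down to 5.37. They stood in 1 run of 9 members. The intervals count neighbours in a run as independent, and whether these shares belong to the gene lists or to single places was not tested.

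The strongest members with fusion at every later time included a region over a megabase from any protein-coding gene. The highest DMSO fold, 18.8, was on chromosome 16 (87162539 to 87163274), 140 kb from C16orf95, a region of 736 bp with a single summit. Its folds were 28.6, 19.4 and 9.62 at 12, 24 and 48 h, and it had no GLTSCR1 call. Folds from separately called lists are set side by side here and do not show a rise or fall.

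A member on chromosome 2 (193370891 to 193375258), 1176 kb from TMEFF2, a transmembrane protein gene, had folds of 18.3 in DMSO and 14.5, 11.5 and 13.5 later, and GLTSCR1 at 12 h (2.97) and 24 h (4.57). A member 108 kb from SLC8A1, the sodium-calcium exchanger gene, on chromosome 2 (40620768 to 40625521), had 16.4 in DMSO and 15.7, 5.62 and 9.19 later. The other 5 of this group lay near CCDC200, CDH10, TEX13C, ACTL7B and CCDC59 with DMSO folds of 12.9 to 13.6. Of the 8, only the member near C16orf95 had no later GLTSCR1 call.

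The strongest members with fusion at no later time were weaker and narrower. The highest, on chromosome 11 (104830261 to 104830676), 112 kb from CASP4, an inflammatory caspase gene, had a DMSO fold of 7.48 and is the single member of the strongest decile without a later fusion call. The next had as nearest genes MVD, a mevalonate pathway enzyme gene (6.91), CCDC59 (6.73) and BRD1, a bromodomain protein gene (6.71), 5.01, 23.9 and 401 kb away. PSEN2, LOC124908048, XXYLT1 and ATE1 followed with 6.48 to 6.51. These 8 were 322 to 675 bp wide with a single summit each, and none had a later GLTSCR1 call. CCDC59 was the nearest gene of a member in both groups, 118 and 23.9 kb away.

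**Figure D5:**
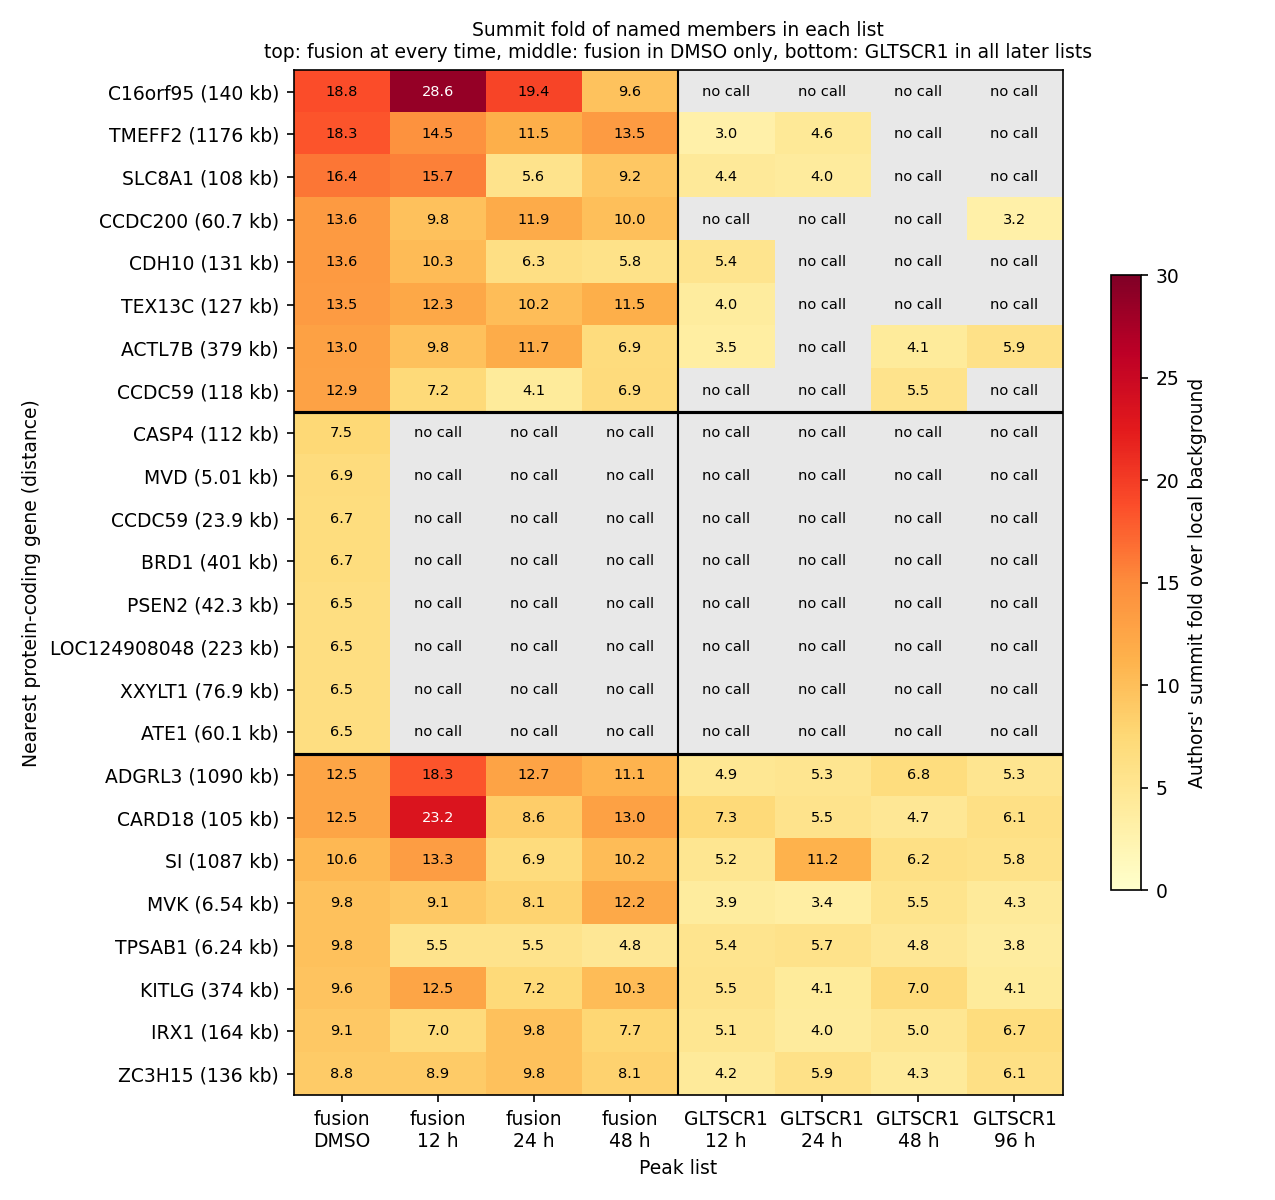
Summit fold (colour and number) of 24 named members in the DMSO fusion list, the 3 later fusion lists and the 4 later GLTSCR1 lists; rows give the nearest protein-coding gene with its distance, and grey cells have no overlapping region. The top 8 had fusion at every later time, the middle 8 at none, and the bottom 8 had GLTSCR1 in all 4 later lists, with GLTSCR1 folds from 3.41 to 11.2.

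Members with GLTSCR1 in all 4 later lists were led by a region on chromosome 4 (63168362 to 63172899), 1090 kb from ADGRL3. Its fusion folds were 12.5 in DMSO and 18.3, 12.7 and 11.1 later, and its GLTSCR1 folds were 4.91, 5.27, 6.75 and 5.27 at 12, 24, 48 and 96 h. A region on chromosome 11 (105245004 to 105249772), 105 kb from CARD18, had fusion folds of 12.5, 23.2, 8.61 and 13.0 and GLTSCR1 folds of 7.25, 5.51, 4.73 and 6.14. A region 1087 kb from SI, the sucrase-isomaltase gene, on chromosome 3 (163889133 to 163892020), had GLTSCR1 folds of 5.15, 11.2, 6.19 and 5.83. The other 5 lay near MVK, TPSAB1, KITLG, IRX1 and ZC3H15. All 8 had fusion at every later time. They lie in the strongest decile of DMSO fold, where 95.7% of members did, while the share over all 131 members with GLTSCR1 in 4 lists was 64.9%. Of the 8, 7 were 2300 to 4808 bp wide, the exception being the 970 bp region near TPSAB1, a mast cell tryptase gene.

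The members farthest from a gene and called at every time were 4 on chromosome 5, 1694 to 1804 kb from EFNA5, an ephrin ligand gene, and 1 on chromosome 4, 1698 kb from IGFBP7, an insulin-like growth factor binding protein gene. The EFNA5 member at 105674667 to 105679079 had fusion folds of 7.60 in DMSO and 10.7, 8.16 and 9.72 later, with GLTSCR1 at 24 h (4.83). The IGFBP7 member had 3.74 in DMSO and 10.6, 4.37 and 8.16 later, with no GLTSCR1 call.

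Members just inside the width limit lay near MUC6 (4978 bp, fold 8.72), FRG2B (4923 bp, 5.63) and ERMARD (4920 bp, 8.90), and regions just outside near CENPC (5028 bp, 7.67), FRG2B (5038 bp, 6.52) and MBNL1 (5068 bp, 10.6). Just inside the gene margin were members 1001, 1005 and 1011 bp from ZBTB10, JAG2 and GCGR, with folds of 5.80, 4.50 and 4.30. Just outside it were regions 1000, 997 and 993 bp from LRRTM4, SH3TC1 and TRIM31, with folds of 4.03, 9.08 and 3.09.

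By chromosome the members made up 12.6% of the fusion regions on chromosome 19 (10.4 to 15.2), 36.6% on chromosome 20 and 39.6% on chromosome 22 (35.0 to 44.3). Fusion was called at every time in 57.2% of the 269 members on chromosome 20 (51.1 to 63.2) and in 31.2% of the 96 on chromosome 19 (22.2 to 41.5). Chromosome 16 stood at 55.3% of 255 and chromosome 15 at 34.2% of 219. Chromosome 20 holds 2 of the 6 longest runs, with 28 members near GATA5 and SLCO4A1 and 27 near BHLHE23 and YTHDF1.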

How the data were processed

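Only the 9 peak lists were used, 4 for the fusion and 5 for GLTSCR1; the 5 input libraries were not analysed here. The submitters' processing notes name MACS2, BWA and SAMtools, Picard, deepTools, bcl2fastq, FastQC, cutadapt and Trim Galore, on build GRCh38/hg38; versions, settings and filters are not given in the sources used. The deposited lists, called per library by the authors, give for each region an integer score, a fold (a ratio of the summit to local background) and −log10 p and −log10 q values; the lowest −log10 q was 3.00 in every list. The deposited score and p-value columns were not used.

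Rows with the same coordinates were collapsed. Protein-coding spans (20033) and non-coding genes came from the RefSeq gene table of GRCh38.p14, and the 447 genes of the 7 lists all matched by symbol. The members and lists were chosen with earlier results of these data known. Regions were named by rule: the 8 of highest DMSO fold with fusion at every later time, at none, or with GLTSCR1 in all 4 later lists, the 5 farthest from a gene, up to 4 for each gene list, the 3 nearest each threshold, the 3 longest runs and the 10 most frequent nearest genes. The microRNA and EMX2OS members, GATA5 and BHLHE23 runs and single chromosomes were picked, and the width-matched comparison by distance from wide regions was added, after values were seen.

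No test between groups was made, since each has 1 library. Shares carry exact 95% Clopper-Pearson intervals. Differences were averaged over the deciles of DMSO fold with normal 95% intervals for counting error, and the code was tested on simulated data. Both kinds of interval treat regions as independent, which neighbours in a run are not. The alternatives were another overlap rule, summits within 250 bp, a −log10 q of at least 5, lists of equal length, a 10 kb gene margin, members over 1 kb from GLTSCR1, leaving out each later fusion list, and other matching. Python 3.11.15, pandas 2.3.3, numpy 2.4.6, scipy 1.17.1 and matplotlib 3.10.9 were used.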

Additional observations from a re-analysis of the deposited data

How the results depend on the processing

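Across 11 alternatives, 30 results gave 200 values: 130 stayed inside the interval of the value reported, 6 numbers of members stayed within 1.5 times, 62 moved outside their interval and 2 reversed. Among 116 values of differences, 15 changed sign, 13 of them where the reported interval held 0; 15 intervals that held 0 came to exclude it and 3 came to hold it. Requiring overlap of 50% of the shorter region gave fusion shares of 62.5, 53.6 and 57.3% at 12, 24 and 48 h, 36.1% at every time, 20.6% at none, GLTSCR1 shares of 5.01, 6.69, 5.86 and 6.99% at 12, 24, 48 and 96 h, and a difference of −6.19 points from intergenic regions with GLTSCR1. Summits within 250 bp gave 33.8, 30.7 and 32.4%, 8.28% at every time, 39.7% at none, and GLTSCR1 shares of 3.08, 3.92, 3.90 and 4.73%. Lists of equal length, 24846 fusion and 13677 GLTSCR1 regions, gave 66.8% at 12 h, 64.3% at 48 h, 43.8% at every time, 16.1% at none, and GLTSCR1 shares of 4.51% at 12 h, 6.69% at 24 h and 7.18% at 96 h. Leaving out the 12, 24 or 48 h list gave 51.3, 56.2 and 52.0% at every remaining time and 23.3, 18.5 and 19.2% at none, higher by construction since fewer lists are asked.

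The difference from gene ends was 1.52 points with a 10 kb margin, which also widened gene ends to regions within 10 kb. The difference from intergenic regions with GLTSCR1 was −17.5 points unmatched and reversed to 7.08 points with width matched; the cause was not tested. The excess of fusion at every time in long runs reversed to −2.83 points with summits; the cause was not tested. A −log10 q of at least 5 (5583 members) and members over 1 kb from GLTSCR1 (6151) moved none of the shares at single times, at every time or at none. The far-minus-near comparison has no value with a 10 kb margin, which leaves no near members. No paired analysis was possible because each group has 1 library and the labels carry no replicate numbers. Peak lists carry no read depth, so weak binding below each list's threshold was not detectable.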
